A study of Mus musculus with 22 samples.

Results

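The genes described here are 9 that are known from regulatory T cells (Treg) of non-lymphoid tissue and from their response to the alarmin IL-33. They were taken by name: Il1rl1, Areg, Pparg, Klrg1, Il1r2, Il1rap, Batf, Nfil3 and Il17rb, which are 9 of the 55011 genes in the count table. All 9 were among the 15462 genes with enough counts to be tested. RNA was read in 22 libraries of CD4+ T cells, sorted from lymph nodes of C57BL/6 scurfy mice at day 50. Scurfy mice carry a loss of function of Foxp3, the transcription factor that defines Treg.

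In the FOXP3 group (5 codes, 10 libraries), CD4+ T cells of 10-day-old scurfy donors had been given a vector with human FOXP3 and LNGFR, a shortened nerve growth factor receptor that serves as surface reporter, and were sorted as LNGFR+. In the WT Treg group (3 codes, 6 libraries), the transferred cells were CD4+CD25+ and carried the CD45.1 allele, by which they were sorted. In the LNGFR group (3 codes, 6 libraries), scurfy CD4+ T cells had received the empty vector with the reporter and were sorted as LNGFR+. All recipients were scurfy and were given cyclophosphamide at 50 mg/kg at 10 days, cells on day 14, and human IL-2 at 1000 IU/g, daily for 5 days and weekly thereafter. A code, such as F1, is the tag that a pair of libraries share in the sample titles. The pair was summed as 1 replicate, since nothing in the labels says that a code is an animal, so the p-values measure the spread between codes, which may in part be technical. The letter of a code is G throughout the LNGFR group and F or N throughout the FOXP3 group, so what the letters mark, which the labels leave out, cannot be told apart from the vector. The WT Treg codes have the letters E, G and L, so G4 carries the letter of the LNGFR group.

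ST2, the product of Il1rl1, binds IL-33 and pairs with IL1RAP, the shared accessory chain of the IL-1 receptor family, to signal through MYD88. Treg of fat, muscle, skin and gut are known to carry ST2, to depend on BATF and, in fat, on PPARG, and to make amphiregulin, the EGF receptor ligand that Areg encodes and that promotes tissue repair. The same receptor and the same growth factor are also features of T helper 2 cells, mast cells and group 2 innate lymphoid cells, so the genes are not specific to Treg.

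The windows around the transcription starts of the genes on which the results turn are shown for reference, from RefSeq on GRCm38.p6, each running from 250 bases before to 50 bases after a start. For 8 of the 9 genes there were 11 such windows, of which Pparg has 3 and Il1rl1 has 2. Capitals mark a match, on either strand, to 1 of 5 letter strings: TGANTCA (AP-1, the family of BATF), TGACGTCA (CRE), TTACGTAA (NFIL3), AGGTCA repeated after any 1 base (the PPAR response element) and GTAAACA (forkhead, the family of FOXP3). The first window is that of Areg at chr5:91139349-91139648, plus strand.
Areg: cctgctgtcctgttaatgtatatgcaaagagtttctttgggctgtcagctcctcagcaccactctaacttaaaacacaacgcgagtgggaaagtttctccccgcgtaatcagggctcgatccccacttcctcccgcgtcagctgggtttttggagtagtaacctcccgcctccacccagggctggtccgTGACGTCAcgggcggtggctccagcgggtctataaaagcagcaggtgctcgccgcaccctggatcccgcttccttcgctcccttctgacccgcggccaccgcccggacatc
The 3 windows of Pparg lie on the plus strand at chr6:115360894-115361193, chr6:115362099-115362398 and chr6:115421816-115422115.
Pparg, first start: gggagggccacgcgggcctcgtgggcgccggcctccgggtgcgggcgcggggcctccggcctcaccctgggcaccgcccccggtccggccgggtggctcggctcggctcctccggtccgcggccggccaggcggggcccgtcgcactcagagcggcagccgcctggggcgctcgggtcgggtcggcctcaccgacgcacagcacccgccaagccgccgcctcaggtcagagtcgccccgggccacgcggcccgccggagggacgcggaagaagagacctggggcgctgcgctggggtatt
Pparg, second start: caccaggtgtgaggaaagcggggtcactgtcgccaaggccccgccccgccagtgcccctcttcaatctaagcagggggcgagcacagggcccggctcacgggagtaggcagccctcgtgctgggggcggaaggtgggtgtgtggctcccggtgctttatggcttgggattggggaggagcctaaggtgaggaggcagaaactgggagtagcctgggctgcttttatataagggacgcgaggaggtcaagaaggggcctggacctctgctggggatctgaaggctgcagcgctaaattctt
Pparg, last start: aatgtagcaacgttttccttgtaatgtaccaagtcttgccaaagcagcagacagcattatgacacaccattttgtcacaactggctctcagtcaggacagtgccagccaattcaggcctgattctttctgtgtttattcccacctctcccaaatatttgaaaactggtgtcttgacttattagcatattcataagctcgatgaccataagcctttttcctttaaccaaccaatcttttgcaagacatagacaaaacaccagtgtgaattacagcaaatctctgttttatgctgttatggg
The 2 windows of Il1rl1 lie on the plus strand at chr1:40429320-40429619 and chr1:40439379-40439678.
Il1rl1, first start: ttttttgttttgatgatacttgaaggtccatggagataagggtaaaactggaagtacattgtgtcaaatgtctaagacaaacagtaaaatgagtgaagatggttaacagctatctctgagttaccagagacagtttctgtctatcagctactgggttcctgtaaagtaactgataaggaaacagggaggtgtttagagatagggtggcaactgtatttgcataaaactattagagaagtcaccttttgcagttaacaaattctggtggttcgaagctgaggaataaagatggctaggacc
Il1rl1, second start: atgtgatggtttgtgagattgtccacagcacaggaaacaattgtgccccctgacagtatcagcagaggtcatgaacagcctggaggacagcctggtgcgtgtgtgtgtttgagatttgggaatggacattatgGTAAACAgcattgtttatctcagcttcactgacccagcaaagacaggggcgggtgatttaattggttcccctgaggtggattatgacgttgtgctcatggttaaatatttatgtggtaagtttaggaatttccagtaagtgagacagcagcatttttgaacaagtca

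The Areg window holds the CRE letters with the first base at -61 from the start, which 1.79% of 32851 windows in the table also hold. The second Il1rl1 window holds the forkhead letters at -117 (3.65% of windows). The AP-1 letters were found in the window of Il17rb and in no other of the 11 (7.81% of windows). The NFIL3 letters (0.119% of windows) and the PPAR element (0.0396%) were in none of the 11. These matches describe the letters and are not shown to be sites of any factor. The 3 Pparg windows differ in base composition: G and C make up 80.3% of the first, 62.7% of the middle one and 40.3% of the last. Il1rl1 and Pparg are transcribed from more than 1 start, and counts per gene do not tell the transcripts apart.

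Levels are given as CPM, the counts in every 1e6 after TMM scaling of the library, and a gene is said to rise or fall where the adjusted p of edgeR's quasi-likelihood test over all 15462 genes is under 0.05. By this test Areg fell in FOXP3 cells and in WT Treg relative to LNGFR cells. No other of the 9 genes passed in any comparison, and none passed for FOXP3 against WT Treg. Pparg was lower in every FOXP3 and WT Treg code than in every LNGFR code, but did not pass. That is 1 of 9 genes lower in FOXP3 than in LNGFR, where 0.375% of all genes tested were called lower and 0.543% called in either direction. In WT Treg 1 of 9 was lower than in LNGFR (0.673% called lower, 1.3% in either direction), and between FOXP3 and WT Treg 0 of 9 were called (0.259%). The unadjusted p was under 0.05 for 3 of the 9 in FOXP3 against LNGFR (10.3% of all genes tested), for 4 in WT Treg against LNGFR (14.8%) and for 4 in FOXP3 against WT Treg (16.5%), and DESeq2 also called 0 in the last. The first 2 comparisons share the LNGFR codes, so they are not independent of each other.

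**Figure D1:**
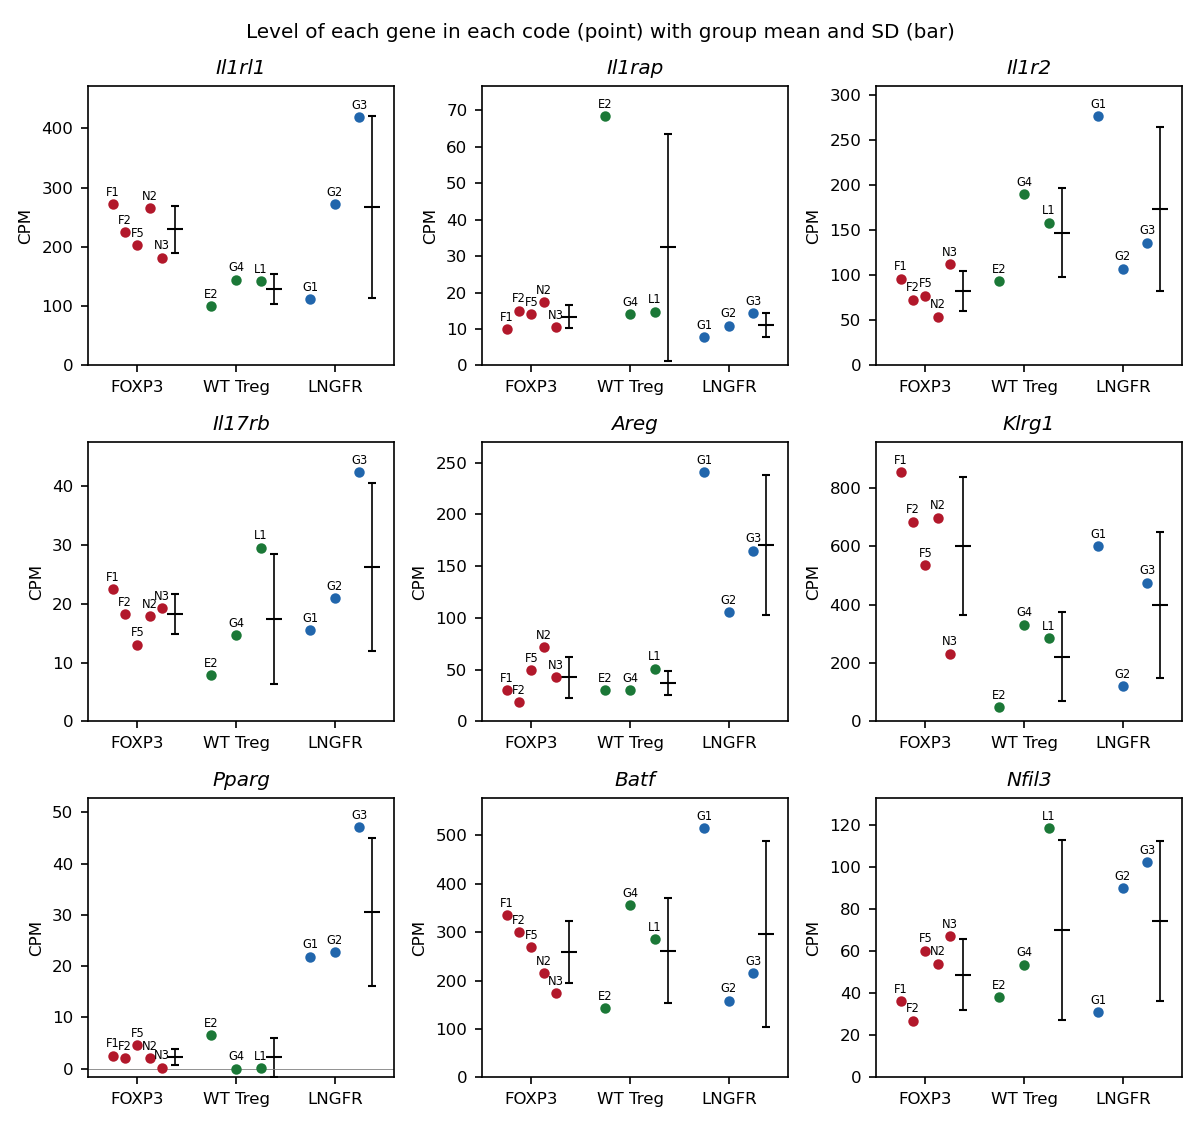
Level (CPM, linear axis from 0 or just below it) of each of the 9 genes in each code (points, with the code's name), for FOXP3, WT Treg and LNGFR, with the group mean and SD as a bar at the right of each group. For Areg the FOXP3 codes lie at 18.3 to 71.8 CPM, the WT Treg codes at 30.2 to 51.0 CPM and the LNGFR codes at 106 to 241 CPM, while for most other genes the groups overlap.

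Areg (ENSMUSG00000029378.5, GRCm38 chromosome 5, 91139599 to 91148432, plus strand) had 30.3, 18.3, 49.5, 71.8 and 42.5 CPM in FOXP3 codes F1, F2, F5, N2 and N3. It had 30.3, 30.2 and 51.0 CPM in WT Treg codes E2, G4 and L1, and 241, 106 and 165 CPM in LNGFR codes G1, G2 and G3. Every LNGFR code thus lay above every code of the other groups, G4 included, and FOXP3 and WT Treg codes overlapped. The group means were 42.5 ± 20.2 CPM in FOXP3 (SD, n = 5), 37.2 ± 11.98 CPM in WT Treg (n = 3) and 171 ± 67.9 CPM in LNGFR (n = 3). Relative to LNGFR, Areg fell by 2.00 on the log2 scale in FOXP3 cells (SE 0.40, 4.01-fold, edgeR adjusted p = 0.0442). In WT Treg it fell by 2.18 (SE 0.48, 4.52-fold, adjusted p = 0.0446). Between FOXP3 and WT Treg the log2 fold change was 0.17 with a 95% interval of -0.65 to 0.99 (adjusted p = 0.871).

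Both Areg calls stood close to the threshold. Over 19 other settings, which include each code left out in turn, the FOXP3 against LNGFR value ran from -2.32 to -1.21, and 9 of the 19 kept the call (adjusted p 0.000342 to 0.282). The call was kept when N2, N3 or E2 was left out and lost when any of F1, F2, F5, G1, G2, G3, G4 or L1 was. For WT Treg against LNGFR the range was -2.49 to -1.38, and 7 of 19 settings kept the call (adjusted p 0.000572 to 0.482): it was kept without F2, N2 or N3 and lost without any of F1, F5, G1, G2, G3, E2, G4 or L1. The high G1 value rests on 1 of its libraries: of the library total, the first held 254 CPM of Areg (704 counts) and the second, which was shallow, 39.1 CPM (13 counts). In the second libraries alone the log2 fold change was -1.21 for FOXP3 against LNGFR (adjusted p = 0.282), over 1.5 times smaller.

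Pparg (ENSMUSG00000000440.12, chromosome 6, 115360951 to 115490399, plus strand), the nuclear receptor known as a driver of fat Treg and of fat cells, was scarce. The FOXP3 codes had 2.58, 2.05, 4.64, 2.08 and 0.218 CPM (F1, F2, F5, N2, N3). In WT Treg it had 6.58 CPM in E2, 0 in G4 and 0.133 CPM in L1, and in LNGFR 21.9, 22.7 and 47.1 CPM in G1, G2 and G3. No LNGFR code overlapped the other groups, and the libraries held 109 counts in FOXP3, 6 in WT Treg and 600 in LNGFR. Non-overlap by itself is not rare in these data: codes of the compared groups did not overlap for 9.02% of genes between FOXP3 and LNGFR, 16.6% between WT Treg and LNGFR and 12.4% between FOXP3 and WT Treg.

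The log2 fold change of Pparg was -3.72 ± 0.83 (SE) for FOXP3 against LNGFR (edgeR adjusted p = 0.0732) and -5.54 ± 1.35 for WT Treg against LNGFR (adjusted p = 0.0728). Both missed the threshold as tested here. In 9 of 19 other settings the first was called lower, and its value stayed between -4.14 and -3.16. The second was called lower in 7 of 19, with values of -8.64 to -4.16, and it was -4.57 without G3, -4.51 without G4 and -4.52 without L1, not called in any of these (adjusted p 0.135 to 0.293). Pparg averaged 2.31 CPM in FOXP3 and 2.24 CPM in WT Treg, whose codes overlapped, and the log2 fold change between them was 1.82 ± 1.32 (interval -0.76 to 4.41, adjusted p = 0.538), and 0.39 with DESeq2. Of the 6 WT Treg counts 5 lay in the libraries of E2, the shallowest code. Without E2 the group held 1 count, and the fold change (-8.43) then depends on the value added to avoid logs of 0. G4 and L1 of WT Treg together held 1 count, against 535 counts in G2 and G3 of LNGFR, and the pooled CPM of LNGFR over that of WT Treg was 502, with a 95% exact interval of 89.7 to 19868. The same ratio for F1, F2, F5 and N2 together (107 counts) over G4 and L1 was 38.4 (6.74 to 1530.1), but this leaves out N3, the lowest FOXP3 code, and E2, the highest WT Treg code. The first ratio leaves out G1 and E2. Both intervals take reads, not codes, as the units and leave out the spread between codes. Reads carry no molecular identifiers, and no pair of libraries of a code agreed within sampling noise, so the intervals are likely too narrow. An antisense gene model overlaps Pparg and the strand setting of the counting is not given, so reads of the 2 cannot be told apart.

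Genes around these results moved in part with them. Cxcl2 and Cxcl3, chemokines that draw neutrophils, lie within 500 kb of Areg on chromosome 5. Cxcl3 fell to 0.366 ± 0.297 CPM in FOXP3, against 12.4 ± 8.41 CPM in LNGFR (log2 fold change -5.01 ± 0.79, edgeR adjusted p = 0.0128). Cxcl2 fell to 6.64 ± 3.86 CPM in FOXP3, against 72.5 ± 32.4 CPM in LNGFR (-3.44 ± 0.57, adjusted p = 0.0164). In WT Treg the values relative to LNGFR were -4.66 ± 1.05 for Cxcl3 (adjusted p = 0.05004) and -2.04 ± 0.67 for Cxcl2 (adjusted p = 0.197), and neither passed. The EGF receptor ligands Ereg, Epgn and Btc, which flank Areg, had 4, 1 and 4 counts over LNGFR and were not tested. Of the 14 protein-coding genes within this distance, Areg itself included, 7 were tested. Around Il1rl1, 8 of 11 (Il1rl1 itself included) were tested and none was called in any comparison. They include the receptor genes Il1r2, Il1r1, Il1rl2, Il18r1 and Il18rap, which lie beside one another on chromosome 1. Their direction was mixed: for FOXP3 against LNGFR, Il1rl2, a receptor of IL-36, had -2.30 ± 0.64 (adjusted p = 0.157) and Il18r1, a chain of the IL-18 receptor, had 0.60 ± 0.39 (adjusted p = 0.657).

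**Figure D2:**
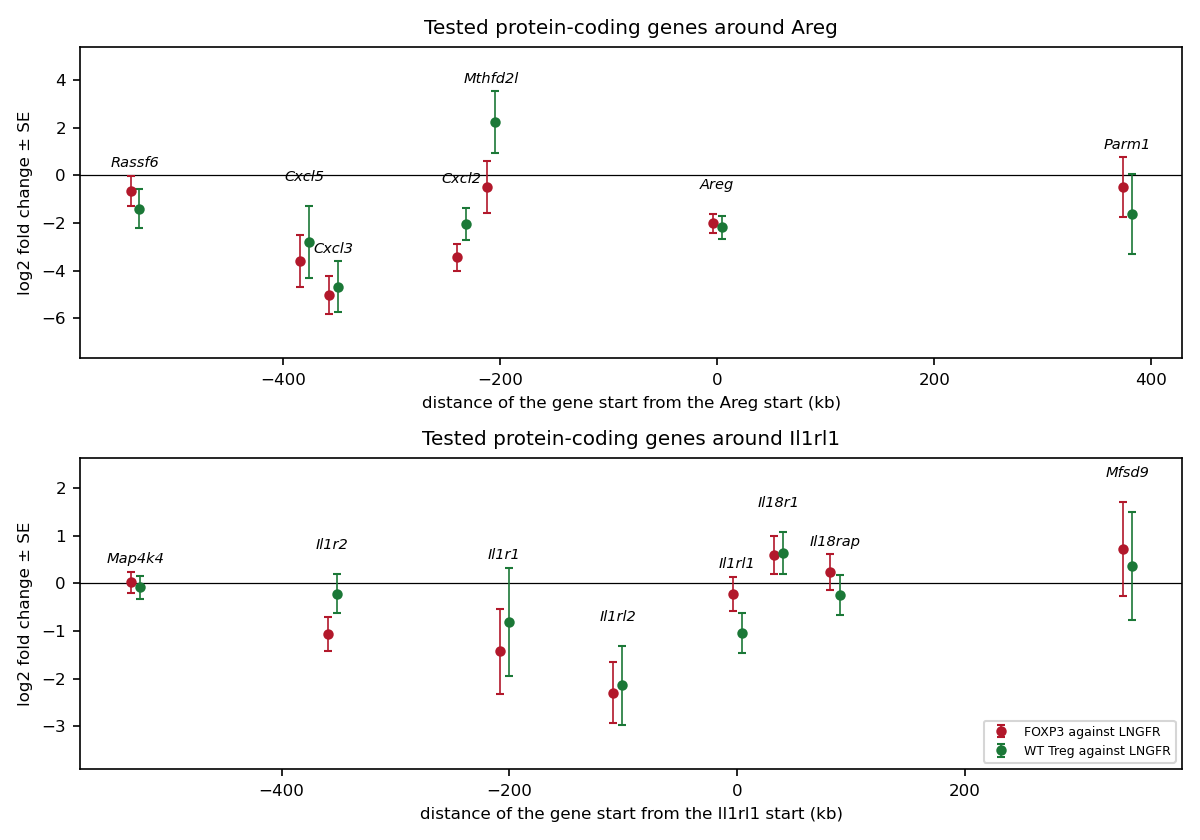
Log2 fold change (vertical axis, ± SE) of the tested protein-coding genes around Areg (upper panel) and Il1rl1 (lower panel) against the distance of each gene's lower coordinate from that of the named gene in kb, for FOXP3 against LNGFR and WT Treg against LNGFR, drawn slightly apart. Around Areg, Cxcl3 at -5.01 and Cxcl2 at -3.44 lie below 0 with it for FOXP3 against LNGFR. Around Il1rl1 the values fall on both sides of 0.

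RNA of other cell types also differed between codes, and its part in the Areg and Pparg results was not tested. Areg and Pparg are made by mast cells, macrophages and other cells as well as T cells. The 9 mast cell and basophil markers summed to 3.05 to 8.95 CPM in FOXP3, 3.60 to 76.3 CPM in WT Treg (the highest in E2) and 13.1 to 35.3 CPM in LNGFR. Of these 2 were tested, Hdc and Kit. In LNGFR codes G1, G2 and G3, Hdc had 21.5, 5.28 and 13.4 CPM and Kit 2.69, 7.20 and 4.32 CPM. Cpa3, Ms4a2 and Fcer1a, which were not tested, reached at most 1.68, 0.672 and 0.120 CPM in LNGFR. In WT Treg these had 26.3, 30.3 and 7.90 CPM in E2, and at most 1.13 CPM in G4 and L1. Hdc, the histamine synthesis enzyme, averaged 3.88 ± 1.81 CPM in FOXP3, 1.73 ± 0.86 CPM in WT Treg and 13.4 ± 8.12 CPM in LNGFR, and was called lower in WT Treg than in LNGFR (edgeR adjusted p = 0.045). The 10 macrophage and dendritic cell markers summed to 14.6 to 30.2 CPM in FOXP3, 34.6 to 85.6 CPM in WT Treg and 16.2 to 42.4 CPM in LNGFR, and the 8 neutrophil markers to 0.762 to 2.35, 1.46 to 11.8 and 0.839 to 16.5 CPM in the same groups. The neutrophil sums of 11.8 and 16.5 CPM were those of E2 and G1, against at most 2.72 CPM in the other codes. Plasma cell markers (5 genes) summed to 3.84 to 286 CPM in FOXP3, 10.4 to 64.1 CPM in WT Treg and 146 to 573 CPM in LNGFR. Most of each LNGFR sum was Jchain (120 to 507 CPM), while Sdc1 reached at most 8.75 CPM and Tnfrsf17 0.672 CPM there. B cell markers (6 genes) reached 4251 CPM in N3 and 1491 CPM in G1, against 102 to 487 CPM in the other codes. Natural killer cell markers (5 genes) summed to 0.863 to 2.7 CPM in FOXP3, 1.13 to 46.1 CPM in WT Treg (the highest in E2) and 3.84 to 17.8 CPM in LNGFR. Most of each LNGFR sum was Eomes (2.88 to 11.1 CPM). CD8 T cell markers (2 genes) summed to 4.03 to 9.55, 11.8 to 34.0 and 8.75 to 14.2 CPM in the same groups. Stromal cell markers (5 genes) summed to 89.2 to 154 CPM in FOXP3, 63.9 to 88.2 CPM in WT Treg and 34.0 to 126 CPM in LNGFR. Most of each sum was 1 gene, Pecam1 (79.6 to 151, 52.6 to 81.4 and 21.9 to 120 CPM in the same groups). Col1a1 was highest in FOXP3, with 8.47 ± 3.26 CPM, against 4.73 ± 1.76 CPM in WT Treg and 4.73 ± 1.88 CPM in LNGFR. Col3a1 reached at most 0.415 CPM and Pdgfra 0.519 CPM in FOXP3. Of the marker genes 1 was at 0 in all codes, the stromal chemokine Ccl19. The 8 T cell identity genes summed to 3573 to 5629 CPM in FOXP3, 2467 to 6059 CPM in WT Treg and 5104 to 6536 CPM in LNGFR. Mouse Foxp3 stood at 162 to 313 CPM in FOXP3, 704 to 1630.1 CPM in WT Treg and 42.7 to 143 CPM in LNGFR. These counts do not tell a functional Foxp3 transcript from the scurfy one. Whether reads of the human FOXP3 vector are among them is not known. In such bulk samples, fewer cells of a type and less RNA per cell cannot be told apart.

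Il1rl1 (ENSMUSG00000026069.15, chromosome 1, 40429570 to 40465415, plus strand), the IL-33 receptor ST2, was present in every code of all 3 groups. The FOXP3 codes had 272, 225, 203, 265 and 182 CPM (F1, F2, F5, N2, N3), and the WT Treg codes 100.03, 145 and 142 CPM (E2, G4, L1). In LNGFR it varied most, with 111 CPM in G1, 272 CPM in G2 and 418 CPM in G3. Thus all FOXP3 codes lay above all WT Treg codes, while LNGFR codes spanned both. The means were 229 ± 39.0 CPM in FOXP3 (SD, n = 5), 129 ± 25.03 CPM in WT Treg (n = 3) and 267 ± 154 CPM in LNGFR (n = 3). Between FOXP3 and WT Treg the log2 fold change of Il1rl1 was 0.82 ± 0.38 (95% interval 0.08 to 1.56, edgeR adjusted p = 0.296). Relative to LNGFR it was -1.05 ± 0.41 in WT Treg (adjusted p = 0.272). In FOXP3 it was -0.22 ± 0.36 relative to LNGFR, with an interval of -0.93 to 0.49 (adjusted p = 0.847), and 0.32 when G3 was left out. Leaving out G1 made the WT Treg against LNGFR difference -1.42 (adjusted p = 0.0409).

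Il1rap (ENSMUSG00000022514.14, chromosome 16, 26581704 to 26730117, plus strand), the partner of ST2, was far lower. An antisense gene model overlaps it too, with the same doubt about strand as for Pparg. It had 9.98, 15.0, 14.1, 17.4 and 10.6 CPM in FOXP3 codes F1, F2, F5, N2 and N3, against 7.73, 10.9 and 14.4 CPM in LNGFR codes G1, G2 and G3. WT Treg codes G4 and L1 had 14.1 and 14.8 CPM, and E2 had 68.4 CPM. The WT Treg values outside the range of the other groups therefore came from E2 alone. The log2 fold change of WT Treg against LNGFR was 1.41 ± 0.54 (edgeR adjusted p = 0.259) with E2 and 0.38 (adjusted p = 0.677) without it. For FOXP3 against WT Treg it was -1.14 ± 0.47 (adjusted p = 0.234) with E2 and -0.10 (adjusted p = 0.998) without it. For FOXP3 against LNGFR it was 0.27 with an interval of -0.64 to 1.18 (adjusted p = 0.855).

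Il1r2 (ENSMUSG00000026073.13, chromosome 1, 40074079 to 40125231, plus strand) encodes the decoy receptor that binds IL-1 without signalling. It overlaps an antisense gene model and another on its own strand, so their reads may be mixed with its own. Its level was 96.2, 73.2, 77.5, 54.1 and 112 CPM in FOXP3 codes F1, F2, F5, N2 and N3, against 93.5, 190.2 and 159 CPM in WT Treg codes E2, G4 and L1. LNGFR codes G1, G2 and G3 had 277, 108 and 136 CPM. FOXP3 codes lay low, with N3 and F1 reaching into the range of the others. In FOXP3 the log2 fold change of Il1r2 was -1.07 ± 0.36 relative to LNGFR (interval -1.77 to -0.37, edgeR adjusted p = 0.259) and -0.84 ± 0.36 relative to WT Treg (adjusted p = 0.251). In WT Treg it was -0.22 relative to LNGFR, with an interval of -1.02 to 0.58 (adjusted p = 0.846), and turned to 0.28 without G1 and to 0.03 without E2.

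Il17rb (ENSMUSG00000015966.17, chromosome 14, 29996135 to 30008896, minus strand) encodes a chain of the receptor for IL-25, another alarmin of type 2 responses. It had 22.5, 18.2, 13.0, 18.0 and 19.3 CPM in FOXP3 codes F1, F2, F5, N2 and N3, 7.90, 14.7 and 29.6 CPM in WT Treg codes E2, G4 and L1, and 15.5, 20.97 and 42.4 CPM in LNGFR codes G1, G2 and G3. All groups overlapped. Its log2 fold change relative to LNGFR was -0.54 ± 0.38 in FOXP3 (edgeR adjusted p = 0.674) and -0.51 ± 0.44 in WT Treg (adjusted p = 0.605). Relative to WT Treg it was -0.03 ± 0.39 in FOXP3 (adjusted p = 0.981). Actr8 overlaps Il17rb on the other strand, so reads of the 2 may be mixed.

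Klrg1 (ENSMUSG00000030114.8, chromosome 6, 122270596 to 122282882, minus strand), an inhibitory receptor for cadherins and a mark of terminally differentiated effector cells and tissue Treg, had the widest range. The FOXP3 codes had 854, 684, 535, 698 and 232 CPM (F1, F2, F5, N2, N3). The WT Treg codes had 48.7, 331 and 286 CPM (E2, G4, L1), and the LNGFR codes 599, 119.7 and 475 CPM (G1, G2, G3). In G1 the first library held 634 CPM of the library total (1760 counts) and the shallow second 63.1 CPM (21 counts). Of the FOXP3 codes only N3 lay inside the WT Treg range. The means were 601 ± 235 CPM in FOXP3 (SD, n = 5), 222 ± 152 CPM in WT Treg (n = 3) and 398 ± 249 CPM in LNGFR (n = 3). Between FOXP3 and WT Treg the log2 fold change was 1.42 ± 0.64 (interval 0.17 to 2.68, edgeR adjusted p = 0.284). Relative to LNGFR it was 0.59 ± 0.62 in FOXP3 (adjusted p = 0.763) and -0.83 ± 0.68 in WT Treg (adjusted p = 0.590).

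Batf (ENSMUSG00000034266.6, chromosome 12, 85686669 to 85709087, plus strand), an AP-1 factor needed for tissue Treg and T helper differentiation, had nearly equal group means. They were 259 ± 64.6 CPM in FOXP3 (SD, n = 5), 261 ± 108 CPM in WT Treg (n = 3) and 296 ± 192 CPM in LNGFR (n = 3). By code it had 336, 299.97, 269, 215 and 175 CPM in FOXP3 (F1, F2, F5, N2, N3), 143, 355 and 286 CPM in WT Treg (E2, G4, L1) and 515, 158 and 216 CPM in LNGFR (G1, G2, G3). G1 stood above all the others, on 1 of its libraries: of the library total, the first held 548 CPM (1523 counts) and the shallow second 27.1 CPM (9 counts). Relative to LNGFR the log2 fold change of Batf was -0.19 in FOXP3 (interval -1.003 to 0.61, edgeR adjusted p = 0.883) and -0.17 in WT Treg (-1.08 to 0.74, adjusted p = 0.905). Between FOXP3 and WT Treg it was -0.02 (-0.84 to 0.79, adjusted p = 0.987). Without G1 the first became 0.47 and the second 0.48, with neither called.

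Nfil3 (ENSMUSG00000056749.7, chromosome 13, 52967209 to 52981073, minus strand), a repressor of the basic leucine zipper class that links the clock to immune genes, also overlapped in all groups. It had 36.0, 26.9, 60.2, 54.1 and 67.0 CPM in FOXP3 codes F1, F2, F5, N2 and N3, 38.2, 53.5 and 118 CPM in WT Treg codes E2, G4 and L1, and 30.9, 89.8 and 102 CPM in LNGFR codes G1, G2 and G3. Relative to LNGFR the log2 fold change of Nfil3 was -0.61 ± 0.44 in FOXP3 (edgeR adjusted p = 0.678) and -0.06 ± 0.50 in WT Treg (adjusted p = 0.972). Between FOXP3 and WT Treg it was -0.55 ± 0.44 (adjusted p = 0.583).

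**Figure D3:**
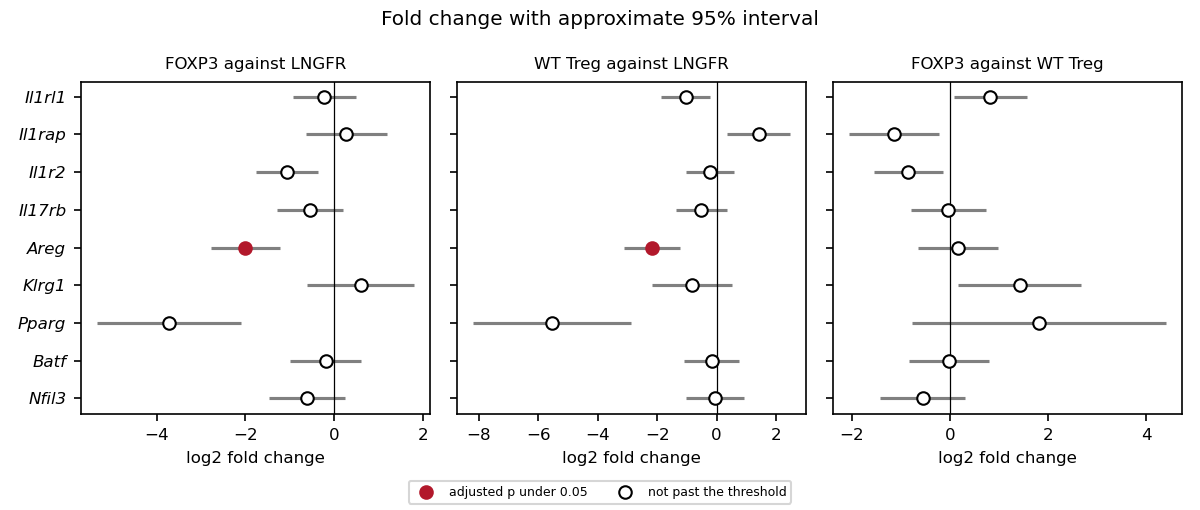
Log2 fold change (horizontal axis) with its approximate 95% interval (line) for the 9 genes in each of the 3 comparisons, with the horizontal range differing between panels. Filled points passed the threshold, which was Areg at -2.00 and -2.18, and open points did not.

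The order of levels between genes, read per kb of exon, was led by Klrg1 in FOXP3 (425 ± 166 CPM per kb, SD, n = 5) and in LNGFR (281 ± 176 CPM per kb, n = 3). In WT Treg, Batf (186 ± 76.8 CPM per kb, n = 3) and Klrg1 (157 ± 107 CPM per kb) came first and did not differ beyond their spread. Areg ranked next after Batf in LNGFR at 140.4 ± 55.9 CPM per kb, while in FOXP3 it had 35.0 ± 16.7 CPM per kb, within the spread of Il1rl1 (33.3 ± 5.66 CPM per kb). Il1rap and Pparg held 2 of the last 3 places in each group, with at most 2.85 CPM per kb for Il1rap and 10.4 CPM per kb for Pparg.

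Several genes changed their reading when the codes E2, G1 and N3 were left out, a set that earlier work chose after seeing these data for low depth or RNA of other cells. This leaves 4 FOXP3, 2 WT Treg and 2 LNGFR codes, and far more genes pass: relative to LNGFR 10.7% of genes in FOXP3 and 7.66% in WT Treg, and 7.42% between FOXP3 and WT Treg. In that fit Pparg (-3.63, edgeR adjusted p = 0.000117) and Il1r2 (-0.70, adjusted p = 0.0358) were lower in FOXP3 than in LNGFR, and Areg (-1.68, adjusted p = 0.0948) was not called. Il1rl1 was lower in WT Treg than in LNGFR (-1.27, adjusted p = 0.0019) and higher in FOXP3 than in WT Treg (0.74, adjusted p = 0.0221). Il1r2 was lower in FOXP3 than in WT Treg (-1.22, adjusted p = 0.00286). Batf was higher in WT Treg than in LNGFR (0.78, adjusted p = 0.0413), against the sign found with all codes. Pparg was lower in WT Treg than in LNGFR and higher in FOXP3 than in WT Treg (adjusted p = 0.00687), both resting on the 1 WT Treg count named above and the second called in no other of the 19 settings. The median fold change of all genes moved by less than 0.1 on the log2 scale in this fit.

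**Figure D4:**
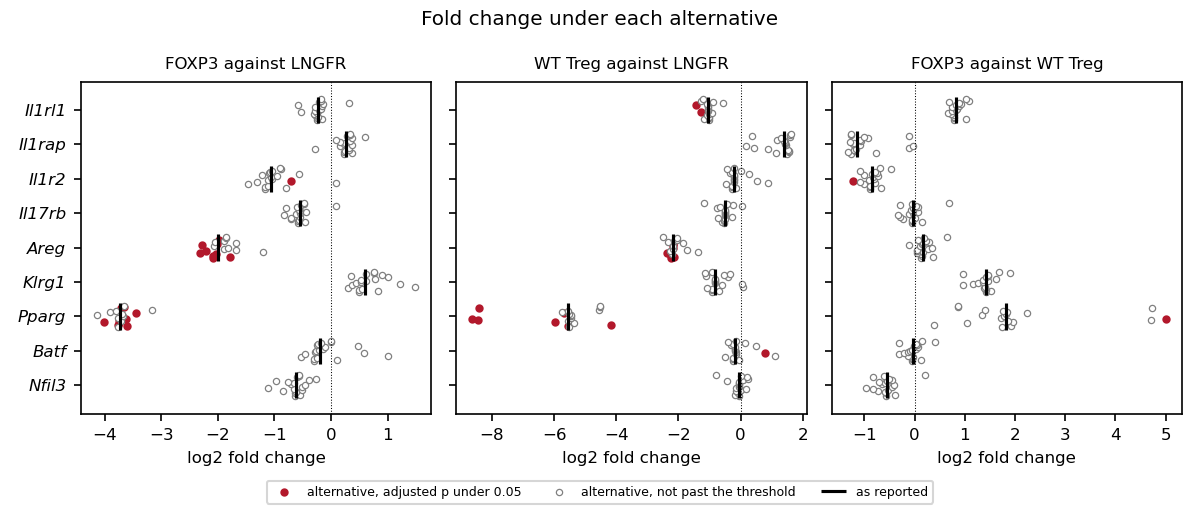
Log2 fold change (horizontal axis) of the 9 genes under each of 19 other settings (points, filled where the adjusted p is under 0.05) and as reported (vertical bars), for the 3 comparisons, with the horizontal range differing between panels. Areg and Pparg stay below 0 against LNGFR in every setting shown, while Batf, Nfil3, Il1r2, Klrg1 and Il17rb cross 0 in WT Treg against LNGFR.

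Some genes of the surrounding pathways passed, in lists that were chosen with earlier results of these data known. Their calls and that of Cxcl3 were not followed one by one through the other settings. With 1 code left out, 13 to 84 of the 84 genes called for FOXP3 against LNGFR were called again. For WT Treg against LNGFR it was 37 to 201 of 201. Of 18 other genes of tissue Treg, 2 fell in FOXP3 relative to LNGFR, where 0.375% of all genes tested were called lower. The list median was 0.20 against -0.02 over all genes tested. The 2 genes were Cxcl2, given above, and Id2, a regulator of lymphocyte fate. Id2 had 235 ± 10.6 CPM in FOXP3 against 576 ± 171 CPM in LNGFR (-1.29 ± 0.26, edgeR adjusted p = 0.0442). In WT Treg relative to LNGFR 2 of the 18 fell, where 0.673% of all genes tested were called lower (list median -0.33, all genes 0.08). Id2 stood at 105 ± 8.87 CPM in WT Treg (-2.45 ± 0.31, adjusted p = 0.00136). Il10, the suppressive cytokine, stood at 29.7 ± 15.8 CPM in WT Treg and 253 ± 2.47 CPM in LNGFR (-3.02 ± 0.48, adjusted p = 0.00775). For FOXP3 against WT Treg none of the 18 passed, where 0.259% of all genes tested did (median 0.46, all genes 0.01). Il10 had 156 ± 60.2 CPM in FOXP3 and 29.7 ± 15.8 CPM in WT Treg (2.33 ± 0.45, adjusted p = 0.0522).

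Among partners and lipid targets of PPARG (13 of 19 tested), 1 gene passed. It did so in WT Treg against LNGFR, where 1.3% of all genes tested were called in either direction. Dgat2, an enzyme of triglyceride synthesis, rose to 28.5 ± 10.2 CPM in WT Treg, against 2.51 ± 1.17 CPM in LNGFR (3.44 ± 0.51, edgeR adjusted p = 0.00485). It had 7.17 ± 3.34 CPM in FOXP3, a log2 difference of -1.98 ± 0.40 from WT Treg (adjusted p = 0.0636). Plin2, a lipid droplet coat protein, had 21.4 ± 4.45 CPM in FOXP3, against 59.5 ± 34.0 CPM in LNGFR (-1.48 ± 0.40, adjusted p = 0.144). Angptl4, a lipase inhibitor and PPAR target, had 3.62 ± 1.16 CPM in FOXP3, against 10.2 ± 4.82 CPM in LNGFR (-1.48 ± 0.43, adjusted p = 0.181). Rxra, the dimer partner of PPARG, had 90.0 ± 19.8 CPM in FOXP3 and 36.1 ± 9.15 CPM in WT Treg (1.29 ± 0.32, adjusted p = 0.0868). The list median relative to LNGFR was -0.10 in FOXP3 and 0.06 in WT Treg, and between FOXP3 and WT Treg it was -0.20.

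In the other 6 lists no gene passed in any comparison, where 0.259% to 1.3% of all genes tested were called. They are the IL-1 receptor family and its signalling (17 of 20 tested), the IL-17 receptor family (6 of 9), the EGF receptor system (8 of 12), partners of BATF (11 of 15), the clock genes around Nfil3 (13 of 13) and the ligands and phosphatases of KLRG1 (3 of 5). Their medians for FOXP3 against LNGFR were 0.24, -0.51, -0.04, -0.49, -0.25 and -0.48. In WT Treg relative to LNGFR they were 0.06, 0.02, 0.59, -0.62, 0.85 and -0.01, and between FOXP3 and WT Treg 0.14, 0.05, -0.56, -0.02, -0.75 and -0.11. The weak E2 stood apart for some of these genes. Per3 had 36.9 CPM in E2, against 11.6 and 10.1 CPM in G4 and L1, and Erbb4 88.2 CPM, against 0.323 and 2.80 CPM. Dbp, Cry1, Cry2 and Arntl were lower in E2 than in G4 and L1. The part of E2 in the medians was not tested. Fosl2, an AP-1 factor, had 19.3 ± 10.0 CPM in FOXP3, against 57.8 ± 24.5 CPM in LNGFR (-1.58 ± 0.45, edgeR adjusted p = 0.171). Map3k7, the kinase TAK1 of IL-1 and IL-33 signalling, had 28.7 ± 3.52 CPM in FOXP3, against 19.6 ± 3.22 CPM in LNGFR (0.54 ± 0.22, adjusted p = 0.392). Il1rn, the IL-1 receptor antagonist, had 1.23 ± 1.18 CPM in FOXP3 and 11.5 ± 5.43 CPM in WT Treg (-3.16 ± 0.99, adjusted p = 0.123). Hbegf, an EGF receptor ligand like Areg, had 9.29 ± 5.57 CPM in WT Treg and 1.23 ± 0.91 CPM in LNGFR (2.92 ± 0.90, edgeR adjusted p = 0.166). Its highest WT Treg value, 14.5 CPM in E2, rested on 11 counts. Dbp, a clock output factor that binds the same sites as NFIL3, had 3.15 ± 0.73 CPM in FOXP3 and 10.5 ± 2.68 CPM in WT Treg (-1.76 ± 0.37, adjusted p = 0.0714).

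The genes whose level followed each of the 9 most closely over the 11 codes were sought among 8455 genes by Pearson's correlation of log2(CPM + 1). The 11 points share their libraries and depth, and the values are a description. Areg was followed by Tox2 (0.89), Rab4a (0.88) and Ramp1 (0.88). With the group means removed these fell to 0.57, 0.63 and 0.55, so much of their likeness lay in the difference between groups. For the other genes the correlations stayed at 0.80 or more with group means removed. Il1rl1 was followed by Tspan14, Mfng and Ctnna1 (0.93, 0.93 and 0.92, and 0.95, 0.94 and 0.86 with group means removed). Klrg1 was followed by Tsfm, Ppil1 and Elovl1, Il1r2 by Eci1, Pacsin1 and Slc7a6, and Batf by Naa10, Gpx4 and Naxd. Il1rap was followed by Abcg2 and Zfp451, Nfil3 by Uri1, Proser1 and Junb, and Il17rb by Bace1, Smox and Slc35a2. Over these 6 genes the correlations were 0.85 to 0.98, and 0.80 to 0.97 with group means removed. By rank (Spearman) they ran from 0.55 for Slc35a2 with Il17rb to 0.99 for Naa10 with Batf. Il1rap had 68.4 CPM in E2 and 7.73 to 17.4 CPM in the other codes, so the shallow E2 weighs heavily in its correlations. Their rank values were 0.85 for Abcg2 and 0.82 for Zfp451. Pparg was below the level of 10 CPM set for this search.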

How the data were processed

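The authors deposited a table of whole-number counts of reads, with a row for each gene symbol and a column for each library; the values show no normalization. The submitters' processing notes name GRCm38, STAR 2.7.3a and Subread 2.0.0 with its featureCounts. How strand and multiply mapped reads were treated, and which annotation was used, is not given in the sources. Per the labels' protocols, 1000 cells per library were sorted, and polyadenylated RNA was converted to cDNA, cut with Tn5, amplified by 18 PCR cycles and read as pairs of 38 bp. Without molecular identifiers PCR copies count as reads. Library totals ran from 332570 to 5453375 counts. Both libraries of E2 and the second of G1 were weak (332570 to 641980 counts, 28.9% to 58.2% of them on 4 repeat-rich gene models, against 2.19% to 4.47% elsewhere). The log2 CPM of the 2 libraries of a code correlated across genes at 0.97 to 0.98, with G1 (0.47) and E2 (0.83) below that, and a chi-square per degree of freedom of 2.62 or more means that no pair agreed within sampling noise.

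The 2 libraries of a code were summed and all 11 codes entered 1 fit of edgeR 4.0.16 in R 4.3.3 (quasi-likelihood, robust, TMM, filterByExpr), with Benjamini-Hochberg adjustment over 15462 genes. The SE is the log2 fold change over the square root of F, and intervals are 1.96 SE on either side. The procedure was also run on simulated counts, drawn independently for each gene and code from the fitted spread. These modelled neither libraries of a code that disagree nor RNA of other cells, as seen in E2, G1 and N3. The outcome is not reported here. Positions and exon lengths are those of GENCODE M21 on GRCm38. All 9 genes were named in every comparison, and, from 8 lists, per comparison up to 4 called genes with a higher group mean of 10 CPM or more, or some of the 2 of smallest p where none passed. Further lists hold markers of T cells and of 8 other cell types. The 9 genes, the lists and the codes named as standing apart were chosen with earlier results of these data known. Alternatives were DESeq2 1.42.0, its size factors, no filter, the 2 groups alone, single libraries, libraries or codes left out and, added after the data were seen, a block on the number in the code. A gene found in the search for like patterns is not reported here. Figures were drawn with matplotlib 3.10.9.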

Additional observations from a re-analysis of the deposited data

How the results depend on the processing

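Precision was limited by 3 codes in the WT Treg and LNGFR groups, by the shallow E2 and G1, and by Pparg's 6 counts in WT Treg. No whole code is shared between groups, but the numbers in the codes recur (F1, L1 and G1, for instance), so a replicate block on that number was tried after the data were seen. The labels give the numbers no meaning. Deviations from group means correlated, across 8857 genes, at -0.10 to 0.29 in the 9 pairs of codes with the same number (2 over 0.1), and at -0.29 to 0.28 in the other 30, so the numbers were not taken as pairs. With the block none of the 9 genes was called in any comparison, and over all genes 17 were called in FOXP3 and 16 in WT Treg relative to LNGFR, with 1 between FOXP3 and WT Treg. Areg was then -1.95 (edgeR adjusted p = 0.417) and -2.05 (adjusted p = 0.291) relative to LNGFR in FOXP3 and WT Treg, and 2 values changed sign with the replicate block: Nfil3 to 0.45 for WT Treg against LNGFR and Batf to 0.61 for FOXP3 against WT Treg. Over 513 fold changes of the 9 genes under the other settings, 429 kept direction and side of the threshold, 22 lost the call, 22 gained it and 40 changed sign. The cause was not tested for any of them.

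Of the 9 genes, the number called for FOXP3 against LNGFR (1 as reported) was 2 without the filter on low counts, with DESeq2, with only the 2 groups compared, with first libraries, without the 3 weak libraries and with E2, G1 and N3 left out. It was 0 with second libraries and ran from 0 to 2 when each code was left out. For WT Treg against LNGFR (1 as reported) it was 2 without the filter, with DESeq2 and with first libraries, 0 with only the 2 groups or second libraries, 3 without E2, G1 and N3, and 0 to 2 when each code was left out. For FOXP3 against WT Treg (0 as reported) it was 3 without E2, G1 and N3 and 0 in every other setting.

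Over all genes, the calls for FOXP3 against LNGFR (84) were 329 without the filter, 410 with DESeq2, 184 with only the 2 groups, 39 with second libraries, 250 without the weak libraries, 1565 without E2, G1 and N3 and 14 to 273 when each code was left out. For WT Treg against LNGFR (201) the numbers in the same order were 1000, 766, 58, 50, 318 and 1125, and 37 to 299 when each code was left out. For FOXP3 against WT Treg (40) they were 3615, 1111, 135, 10, 66 and 1090, with 77 for first libraries, 63 with the size factors of DESeq2 and 4 to 1230 when each code was left out. The median fold change of all genes moved by 0.15 (FOXP3 against LNGFR) and 0.19 (FOXP3 against WT Treg) on the log2 scale without the filter, and by -0.13 for FOXP3 against LNGFR with second libraries. It moved by 0.14 for FOXP3 against LNGFR without G2. For FOXP3 against WT Treg it moved by 0.18 without G4 and by 0.15 without L1. Values of single genes in these fits include such shifts.

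The other changes of sign were also in differences that were not called as reported. For FOXP3 against LNGFR they were Il1r2 at 0.094, Il1rap at -0.28 and Batf at 1.001 with second libraries, and Batf at 0.097 without the filter and at 0.58 with E2, G1 and N3 left out. With single codes left out, Il1rl1 ran from -0.59 to 0.32 and Il17rb from -0.80 to 0.080 (above 0 without G3), and Batf from -0.29 to 0.47 (above 0 without G1). In WT Treg relative to LNGFR they were Klrg1 at 0.091, Il1r2 at 0.88, Batf at 1.12 and Nfil3 at 0.017 with second libraries, Klrg1 at 0.055, Il1r2 at 0.52 and Batf at 0.78 with E2, G1 and N3 left out, and Nfil3 at 0.16 without the weak libraries. Leaving out single codes there gave Il1r2 from -0.43 to 0.28, Batf from -0.40 to 0.48, Nfil3 from -0.78 to 0.24 and Il17rb from -1.18 to 0.054. Between FOXP3 and WT Treg they were Batf at 0.14 and Il17rb at 0.14 without the filter and Il17rb at 0.015 with second libraries. Leaving out single codes there gave Areg from -0.11 to 0.64, Batf from -0.31 to 0.40, Nfil3 from -0.82 to 0.20 and Il17rb from -0.28 to 0.69.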
